A study of Rattus norvegicus with 6 samples.

Results

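The 36 genes described here carry glucose through glycolysis to lactate or acetyl-CoA, with the pentose phosphate genes beside them. They were taken by gene name from a table of 32623 rat genes, in which all 36 names were found, each on 1 row. They cover 5 transporters of glucose, lactate and pyruvate, 9 enzymes of upper glycolysis, 3 Pfkfb enzymes, 7 enzymes of lower glycolysis, 2 lactate dehydrogenase subunits, 5 genes of pyruvate dehydrogenase and its kinases, and 5 genes of the pentose phosphate pathway. Of these, 34 reached 1 FPKM (fragments scaled to gene length and library size) in 2 or more libraries and were tested, as were 12229 genes in all. Slc16a3 and Aldoc did not.

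Glycolysis splits glucose into pyruvate in the cytosol and yields ATP and NADH. Lactate dehydrogenase turns pyruvate into lactate and regenerates NAD+, whereas pyruvate dehydrogenase commits pyruvate to the mitochondria and is switched off by its kinases. The pentose phosphate pathway branches off at phosphorylated glucose and supplies ribose and NADPH. Several steps have isozymes of different tissues: Pfkm and Eno3 are the muscle forms of phosphofructokinase and enolase, and Pfkl and Eno1 are the liver and the ubiquitous form. The adult heart burns mainly fatty acids, while myoblasts in culture rely heavily on glycolysis.

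RNA sequencing was done on H9C2 cells, a myoblast line from embryonic rat heart, in 3 groups of 2 libraries. Cells of all 3 groups were grown in medium with 1 g/L glucose, and no added glucose is listed for Ctrl. HG cells had 33 mM glucose added for 8 h. The siFGFR1+HG cells received siRNA against Fgfr1, the gene of a fibroblast growth factor receptor, before the same added glucose. No control siRNA and no osmotic control is labelled, and the labels do not say whether Ctrl or HG cells were transfected. Comparisons with siFGFR1+HG therefore cannot tell the siRNA target apart from transfection, nor those of HG with Ctrl glucose apart from osmolarity. The labels do not state separate cultures for the pair in a group, so a p-value covers the spread of these libraries alone, which may be technical.

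The libraries held 46960084 to 75021470 counts, and the 36 genes took 0.857 to 0.974% of them. The row named Fgfr1 was counted 0 and 4 times (Ctrl), 0 and 0 times (HG) and 4 and 0 times (siFGFR1+HG). These counts are too few to check the knockdown, and whether the row holds the gene's reads could not be settled. Muscle lineage markers (Des, Cdh15, Chrna1, Myog, Myod1, Myf5 and Tnnt2) summed to 364 and 364 FPKM (Ctrl), 336 and 339 FPKM (HG) and 288 and 286 FPKM (siFGFR1+HG). Of these 7 markers, 5 passed the filter and Myf5 was at 0 in every library. Cardiomyocyte markers (Myh6, Nppa, Ryr2, Myl7 and Tnni3) summed to at most 0.437 FPKM and endothelial markers to at most 0.311 FPKM. The fibroblast list summed to 28.8 and 27.7 FPKM (Ctrl), 23.98 and 24.2 FPKM (HG) and 34.5 and 37.4 FPKM (siFGFR1+HG), nearly all of it Ddr2. The macrophage list summed to 10.4 to 12.2 FPKM, mostly Cd14, with Ptprc at 0. The epithelial list summed to 26.1 and 25.7 FPKM (Ctrl), 21.3 and 19.6 FPKM (HG) and 18.3 and 19.6 FPKM (siFGFR1+HG), mostly Krt8. The muscle, fibroblast and epithelial sums differed between the groups, not all in the same order. The part of the marker lists in the results below was not tested. In bulk RNA, a change in the share of cells of a kind and a change in RNA per cell cannot be told apart.

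The pathway was strongly expressed. Of the 36 genes, 10 had a mean of at least 100 FPKM over the 6 libraries, 17 lay between 10 and 100, 7 between 1 and 10, and 2 below 1. The highest was Aldoa, the fructose bisphosphate aldolase of muscle, at a mean of 961 FPKM. It was followed by Eno1 at 769.6, Ldha at 643 and Pkm at 624 FPKM. The transporters and the Pfkfb enzymes were far lower, with no library above 26.8 FPKM. Libraries of a group lay close together: the median difference between its 2 libraries over the genes of the list that were tested was 0.0588 to 0.0758 on the log2 scale.

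**Figure D1:**
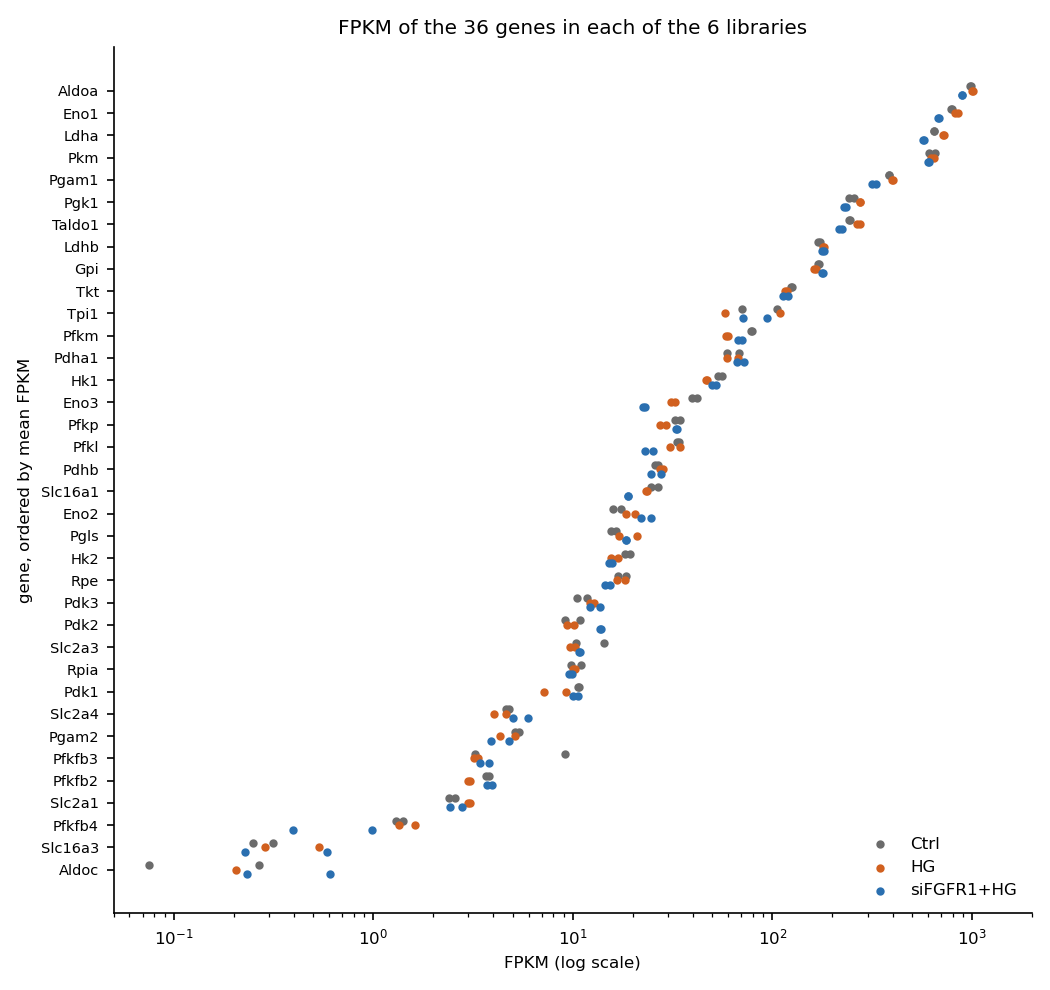
Level of each of the 36 genes in the 6 libraries, in FPKM on a log axis, ordered by mean level, with 1 point per library coloured by group. Aldoa, Eno1, Ldha and Pkm stand at the top, Slc16a3 and Aldoc at the bottom, and Aldoc in HG 2 is listed at 0 and lies off the axis.

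After 8 h of high glucose, 7 of the 34 tested genes differed from Ctrl. Against Ctrl, 2 of the 34 tested genes rose, Ldha and Taldo1, and 5 fell, Pfkm, Eno3, Hk1, Pfkp and Hk2, at an adjusted p under 0.05 (the quasi-likelihood test of edgeR, adjusted by Benjamini and Hochberg's method over all genes tested). Another 27 did not pass. Levels here are FPKM, while percent changes and log2 values (± the standard error) come from that fit of the counts. The falls included both hexokinases and the muscle and platelet forms of phosphofructokinase, which act early in the pathway. Of these calls only that of Pfkm held in all alternative fits given below. Pfkl and Gpi, of the same part of the pathway, were not called. The share called, 20.6% of the 34, stood beside 13.7% of all 12229 genes tested. In the higher direction 5.81% of all genes were called, and in the lower 7.85%. The 2 rises of 34 lay near the first of these shares and the 5 falls were above the second, with no test over the list. The median log2 difference of the 34 genes was -0.055, against 0.0033 over all genes. Of all genes called, 42.5% were higher, but 57.6% were with limma on log2(FPKM + 1).

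Genes of the pathway were called in both directions between siFGFR1+HG and HG, but only the falls exceeded the share over all genes. Against HG, 9 of the 34 fell: Ldha, Eno1, Pgam1, Eno3, Taldo1, Aldoa, Pgk1, Pfkl and Slc16a1. The 5 that rose were Pfkm, Gpi, Pfkp, Pdk2 and Pfkfb2, and 20 did not pass. The share called was 41.2%, beside 29.9% of all genes tested (14.1% of all genes higher and 15.9% lower). The 5 rises of 34 lay near the share of all genes called higher. The 9 falls of 34 were above the share called lower, and no test was made over the list. The median log2 difference was -0.037, against -0.0084 over all genes. Among the genes called, no fall exceeded that of Eno3, 27.7%.

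Against Ctrl, the siFGFR1+HG libraries were lower in 11 of the 34 genes and higher in 2. Eno3, Pgam1, Eno1, Slc16a1, Aldoa, Ldha, Pfkl, Pfkm, Hk2, Taldo1 and Rpe fell, Eno2 and Pdk2 rose, and 21 did not pass. The share called was 38.2%, beside 22.3% of all genes tested (9.82% of all genes higher and 12.4% lower). The median log2 difference was -0.10, against 0.010 over all genes. The 3 comparisons share libraries in pairs, so their values are set side by side and are not independent of each other.

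**Figure D2:**
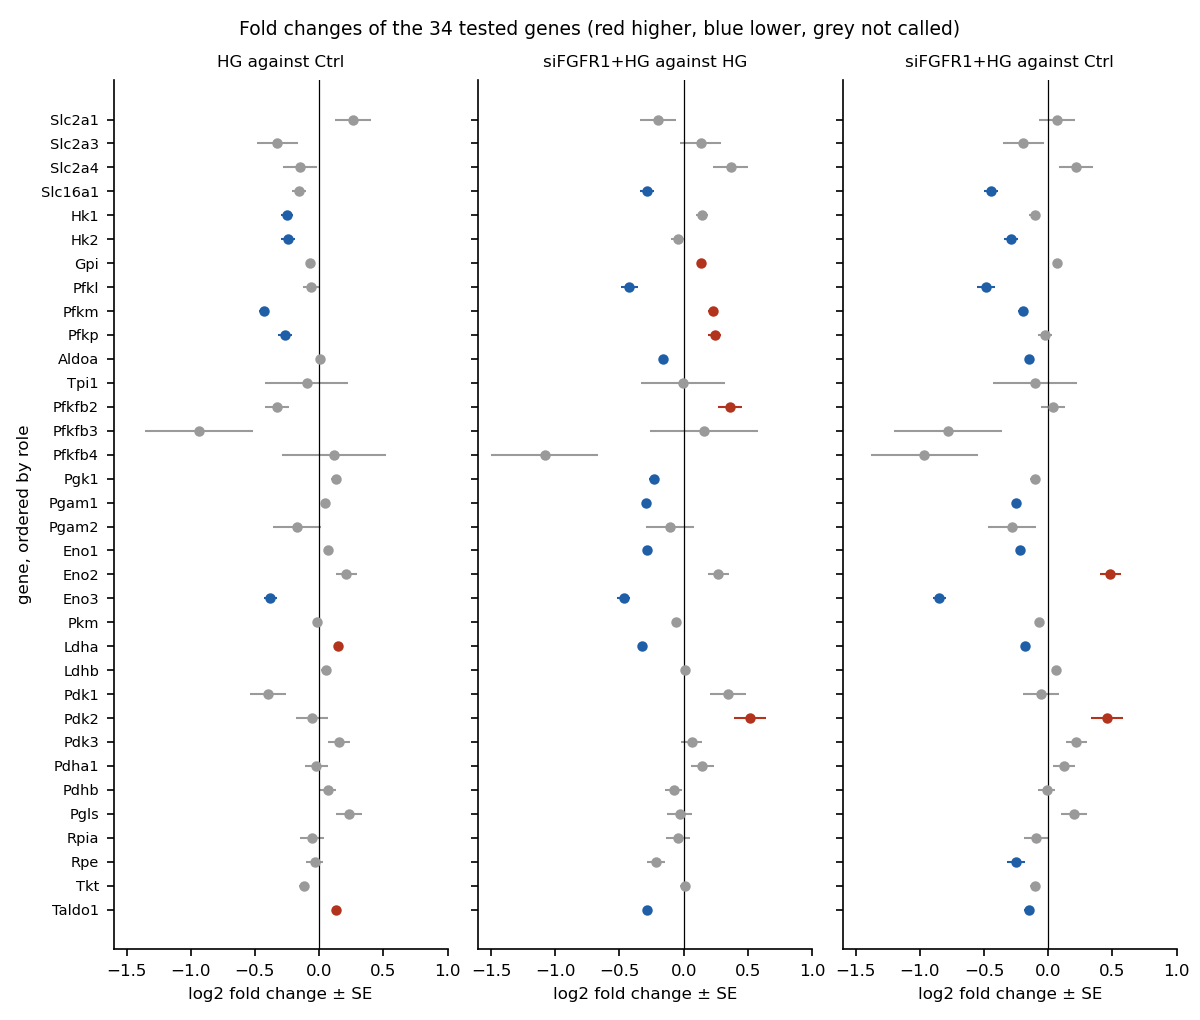
Log2 fold change of the 34 tested genes in each of the 3 comparisons, with the standard error as a bar and the genes that passed an adjusted p of 0.05 marked. Among the genes called in HG against Ctrl, the largest falls are Pfkm at -0.43 and Eno3 at -0.38. Pfkfb3 lies lower there, at -0.94, but was not called. The siFGFR1+HG comparisons hold more falls in lower glycolysis.

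Glucose enters through Slc2a1 (GLUT1, the basal transporter), Slc2a3 (GLUT3) and Slc2a4 (GLUT4, the transporter that insulin moves to the surface in muscle). None of the 3 passed in any comparison. Slc2a1 was measured at 2.39 and 2.57 FPKM (Ctrl), 3.06 and 2.99 FPKM (HG) and 2.79 and 2.43 FPKM (siFGFR1+HG). Its 2 HG libraries were the highest, with log2 0.27 ± 0.14 (SE), edgeR adjusted p = 0.263 against Ctrl. Slc2a3 lay at 14.3 and 10.4 FPKM (Ctrl), 9.63 and 10.3 FPKM (HG) and 10.9 and 10.8 FPKM (siFGFR1+HG), with 1 Ctrl library above all the others. A second row, LOC100909595, is described as a copy of it and held 66.2 to 74.4% of their summed counts. With both rows summed, Slc2a3 was lower in HG than in Ctrl (log2 -0.22, edgeR adjusted p = 0.0479), a setting chosen after the values were seen. Slc2a4 had 4.81 and 4.62 FPKM (Ctrl), 4.01 and 4.60 FPKM (HG) and 5.98 and 5.01 FPKM (siFGFR1+HG). The siFGFR1+HG libraries were the highest there, at log2 0.37 ± 0.14 (SE), edgeR adjusted p = 0.0896 against HG.

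Lactate and pyruvate cross the membrane through the monocarboxylate transporters Slc16a1 and Slc16a3. Slc16a1 measured 26.8 and 24.5 FPKM (Ctrl), 23.4 and 23.2 FPKM (HG) and 18.9 and 18.99 FPKM (siFGFR1+HG). The siFGFR1+HG libraries were below all others. The level fell by 17.9% against HG (log2 -0.29 ± 0.055 (SE), edgeR adjusted p = 0.0110) and fell by 26.5% against Ctrl (log2 -0.44 ± 0.055 (SE), edgeR adjusted p = 0.00282). The first of these calls was lost without siFGFR1+HG 1 (0.0512). Slc16a3, the exporter of strongly glycolytic cells, was not tested. It had 0.315 and 0.249 FPKM (Ctrl), 0.537 and 0.287 FPKM (HG) and 0.229 and 0.583 FPKM (siFGFR1+HG), and its groups overlapped.

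Hexokinase traps glucose by phosphorylation. Hk1, the form of most tissues, had 53.5 and 56.2 FPKM (Ctrl), 46.8 and 46.7 FPKM (HG) and 49.8 and 52.5 FPKM (siFGFR1+HG). Both HG libraries lay below both Ctrl libraries, and the siFGFR1+HG libraries lay between. It fell by 15.9% in HG against Ctrl (log2 -0.25 ± 0.045 (SE), edgeR adjusted p = 0.0182). Against HG, siFGFR1+HG stood at log2 0.14 ± 0.045 (SE), edgeR adjusted p = 0.0554. Hk2, the inducible muscle form, had 18.3 and 19.4 FPKM (Ctrl), 16.8 and 15.5 FPKM (HG) and 15.2 and 15.7 FPKM (siFGFR1+HG). It fell by 15.6% in HG (log2 -0.24 ± 0.055 (SE), edgeR adjusted p = 0.0345) and fell by 18.4% in siFGFR1+HG against Ctrl (log2 -0.29 ± 0.055 (SE), edgeR adjusted p = 0.0126). The 2 glucose groups overlapped. Hk1 lost its call without any 1 of the 4 Ctrl and HG libraries, with log2 at -0.28 to -0.22 over 17 alternatives. Hk2 lost that in HG in 9 of 17 alternatives, with log2 at -0.30 to -0.19. They were both limma fits, only the 2 groups compared and the replicate block. The others were the fits without Ctrl 1, Ctrl 2, HG 2, siFGFR1+HG 1 or siFGFR1+HG 2. The Hk2 call against Ctrl in siFGFR1+HG was lost without Ctrl 2 (0.0709), siFGFR1+HG 1 (0.0717) or siFGFR1+HG 2 (0.0501). Gpi, which converts glucose phosphate to fructose phosphate, ranged from 162 to 180.2 FPKM. It rose by 10.04% in siFGFR1+HG against HG (log2 0.14 ± 0.031 (SE), edgeR adjusted p = 0.0180), a call lost without HG 2 (0.0755), siFGFR1+HG 1 (0.0877) or siFGFR1+HG 2 (0.0690).

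Phosphofructokinase is the main controlled step of glycolysis, and its 3 subunits differed in which comparisons called them and in direction, though no test was made of the difference between them. Pfkm, the muscle subunit (chromosome 7, 139685573 to 139722132, plus strand), had 78.1 and 79.5 FPKM (Ctrl), 59.9 and 58.6 FPKM (HG) and 67.5 and 70.2 FPKM (siFGFR1+HG). The Ctrl libraries were highest, the HG libraries lowest, and no groups overlapped. It fell by 25.8% in HG (log2 -0.43 ± 0.037 (SE), edgeR adjusted p = 0.00231). Against HG it rose by 17.3% in siFGFR1+HG (log2 0.23 ± 0.037 (SE), edgeR adjusted p = 0.00585), and it was still below Ctrl (log2 -0.20 ± 0.037 (SE), edgeR adjusted p = 0.0125). Coordinates are those of the deposited table, whose genome build could not be settled, since the notes name a human build while the gene IDs are of rat. The HG call of Pfkm held in each of the 17 alternative settings run for it, and its call against Ctrl in siFGFR1+HG was lost without Ctrl 1 (0.0554), Ctrl 2 (0.0757) or siFGFR1+HG 1 (0.0716).

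Pfkp, the platelet subunit, had 32.6 and 34.6 FPKM (Ctrl), 27.2 and 29.4 FPKM (HG) and 32.8 and 33.4 FPKM (siFGFR1+HG). The HG libraries were the lowest, and siFGFR1+HG overlapped with Ctrl. It fell by 16.8% in HG (log2 -0.27 ± 0.054 (SE), edgeR adjusted p = 0.0259) and rose by 18.1% in siFGFR1+HG against HG (log2 0.24 ± 0.054 (SE), edgeR adjusted p = 0.0188). The first call was lost in 6 of 17 alternatives, both limma fits and those without Ctrl 1, Ctrl 2, HG 1 or siFGFR1+HG 2. The second was lost without HG 1, siFGFR1+HG 1 or siFGFR1+HG 2. Over the alternatives log2 lay between -0.32 and -0.21 for the first and between 0.19 and 0.30 for the second. Pfkl, the liver subunit, had 33.4 and 34.03 FPKM (Ctrl), 34.6 and 30.8 FPKM (HG) and 25.3 and 23.1 FPKM (siFGFR1+HG). Ctrl and HG overlapped and both siFGFR1+HG libraries lay below them. It fell by 25.4% against HG (log2 -0.42 ± 0.068 (SE), edgeR adjusted p = 0.00546) and fell by 28.6% against Ctrl (log2 -0.49 ± 0.067 (SE), edgeR adjusted p = 0.00431), calls kept in all 17 alternatives.

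As a share of the summed phosphofructokinase FPKM, Pfkm made up 54.2% and 53.7% (Ctrl), 49.2% and 49.3% (HG) and 53.7% and 55.4% (siFGFR1+HG). The share of Pfkl was 23.2% and 22.98% (Ctrl), 28.4% and 25.96% (HG) and 20.1% and 18.2% (siFGFR1+HG). Pfkp held 22.6% and 23.3% (Ctrl), 22.4% and 24.7% (HG) and 26.1% and 26.4% (siFGFR1+HG). The Pfkl share was thus highest in HG and lowest in siFGFR1+HG. These shares are given as values and were not tested.

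**Figure D3:**
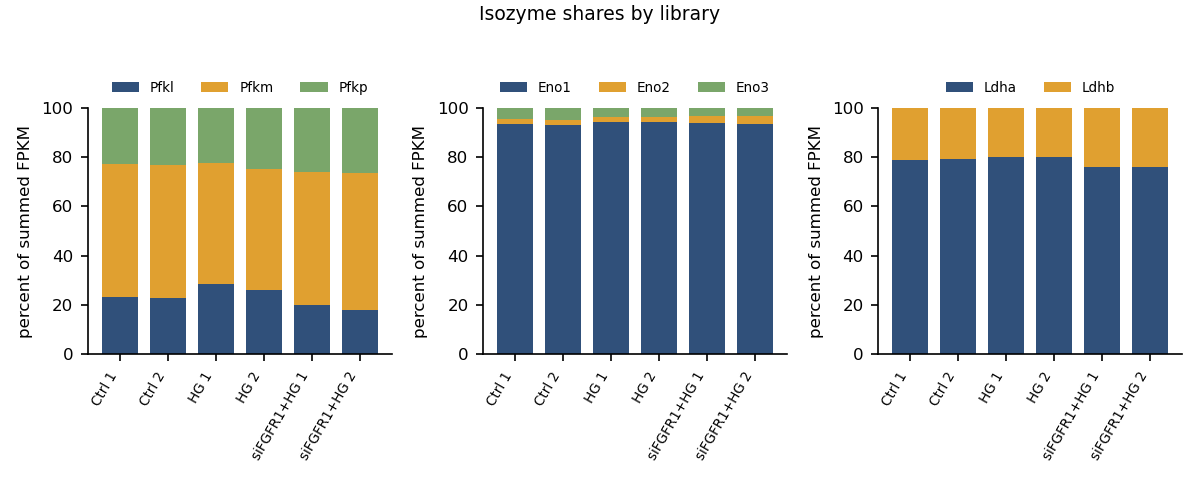
Share of each isozyme in the summed FPKM of its group, in percent, as stacked bars for each of the 6 libraries, for phosphofructokinase, enolase and lactate dehydrogenase. Pfkl took 28.4 and 26.0% of phosphofructokinase in HG against 20.1 and 18.2% in siFGFR1+HG, and the share of Eno3 in enolase was highest in Ctrl.

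The Pfkfb enzymes make and remove the sugar bisphosphate that activates phosphofructokinase. Pfkfb2, the heart form, had 3.81 and 3.66 FPKM (Ctrl), 3.05 and 2.98 FPKM (HG) and 3.72 and 3.95 FPKM (siFGFR1+HG). The HG libraries were lowest. It rose by 28.4% in siFGFR1+HG against HG (log2 0.36 ± 0.094 (SE), edgeR adjusted p = 0.0310), a call lost in 11 of the 16 alternatives that tested it, among them the fits without Ctrl 1 (0.0672), Ctrl 2 (0.0536), HG 1 (0.0947), HG 2 (0.109), siFGFR1+HG 1 (0.0574) or siFGFR1+HG 2 (0.113). Pfkfb3, the form linked to growth and hypoxia, had 853 and 3350 counts (Ctrl), 946 and 819 counts (HG) and 888 and 874 counts (siFGFR1+HG). Ctrl 2 alone stood apart, and HG against Ctrl was not called (log2 -0.94 ± 0.42 (SE), edgeR adjusted p = 0.1996). Without Ctrl 1 it became log2 -1.50, edgeR adjusted p = 0.00800, and without Ctrl 2 log2 0.0017, edgeR adjusted p = 0.997. Its difference between siFGFR1+HG and Ctrl likewise turned on Ctrl 2. It went from log2 -0.78 ± 0.42 (SE) to log2 -1.34, edgeR adjusted p = 0.00319 without Ctrl 1, and to log2 0.16, edgeR adjusted p = 0.518 without Ctrl 2. Pfkfb4, another hypoxia-responsive form, had 149 and 224 counts (Ctrl), 199 and 150 counts (HG) and 45 and 99 counts (siFGFR1+HG). siFGFR1+HG 1 was the lowest, and no comparison passed (log2 -1.08 ± 0.42 (SE), edgeR adjusted p = 0.0979 against HG). Its described copy LOC100911725 took 79.8% of the summed counts in siFGFR1+HG 1 and 26.5 to 45.6% in the other libraries.

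Aldolase splits the doubly phosphorylated sugar. Aldoa (chromosome 1, 198228387 to 198233588, minus strand) measured 980.1 and 991 FPKM (Ctrl), 1008 and 1002 FPKM (HG) and 894 and 889 FPKM (siFGFR1+HG). Both siFGFR1+HG libraries were below the other 4, which lay within a narrow range. It fell by 10.5% against HG (log2 -0.16 ± 0.019 (SE), edgeR adjusted p = 0.00200) and fell by 9.85% against Ctrl (log2 -0.15 ± 0.019 (SE), edgeR adjusted p = 0.00329), and both calls held in all 17 alternatives. Aldoc, the brain form, was not tested. It had 26 and 10 counts (Ctrl), 21 and 0 counts (HG) and 22 and 51 counts (siFGFR1+HG), and reached at most 0.610 FPKM. Tpi1, triose phosphate isomerase, varied within every group, at 106 and 70.4 FPKM (Ctrl), 109 and 57.7 FPKM (HG) and 70.9 and 93.7 FPKM (siFGFR1+HG), and passed in no comparison. The row LOC100911515, described as a copy of it, held 60.1 to 75.99% of their joint counts. Summed, the counts scaled to library size (CPM) were 412 and 421 CPM (Ctrl), 408 and 359.6 CPM (HG) and 359.6 and 375 CPM (siFGFR1+HG), which varied far less within groups. A transcript on the other strand, LOC100911548, overlaps Tpi1, and without strand information reads of the pair cannot be told apart.

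**Figure D4:**
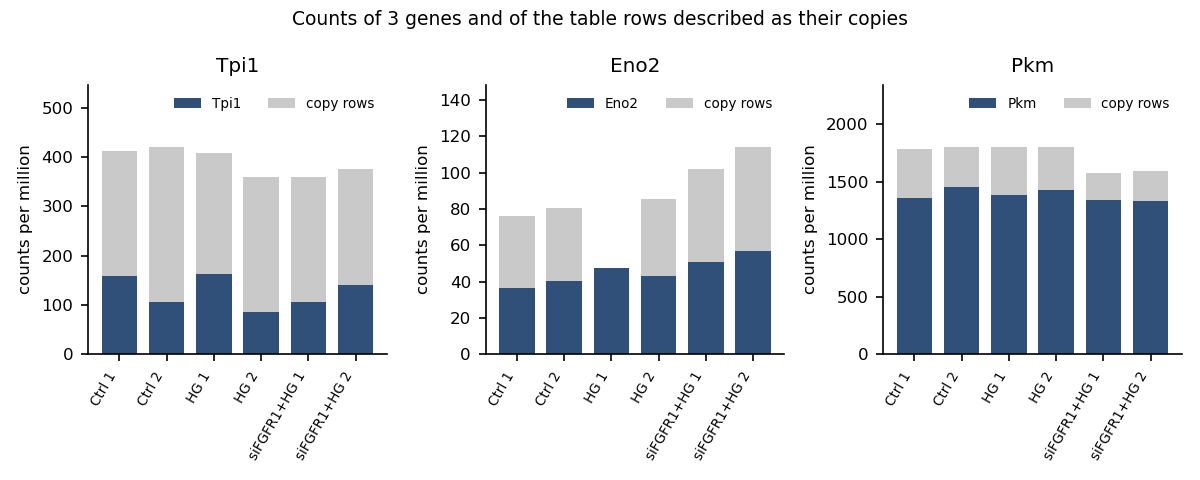
Scaled counts of Tpi1, Eno2 and Pkm in each library, as stacked bars of the gene's own row and of the rows described as its copies. The Tpi1 row alone swings within groups while the sum is steady, and the row of the Eno2 copy is at 0 in HG 1 only.

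Pgk1, Pgam1 and Eno1 were lower in siFGFR1+HG than in HG. Pgk1, phosphoglycerate kinase, which makes the first ATP, had 242 and 255 FPKM (Ctrl), 276 and 275 FPKM (HG) and 235 and 229 FPKM (siFGFR1+HG). It fell by 14.9% against HG (log2 -0.23 ± 0.034 (SE), edgeR adjusted p = 0.00414). In HG it stood at log2 0.13 ± 0.034 (SE), edgeR adjusted p = 0.0564 against Ctrl. Pgam1, the non-muscle phosphoglycerate mutase, had 383 and 382 FPKM (Ctrl), 403 and 396 FPKM (HG) and 330.4 and 316 FPKM (siFGFR1+HG). Both siFGFR1+HG libraries were the lowest. It fell by 18.3% against HG (log2 -0.29 ± 0.029 (SE), edgeR adjusted p = 0.00112) and fell by 15.8% against Ctrl (log2 -0.25 ± 0.029 (SE), edgeR adjusted p = 0.00244). These calls held in all 17 alternatives. Pgam2, the muscle form, had 5.39 and 5.13 FPKM (Ctrl), 5.11 and 4.34 FPKM (HG) and 4.78 and 3.89 FPKM (siFGFR1+HG) and was not called.

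Enolase makes phosphoenolpyruvate. Eno1, the ubiquitous form (chromosome 5, 167288223 to 167299609, plus strand), had 788 and 791 FPKM (Ctrl), 856 and 822 FPKM (HG) and 687 and 674 FPKM (siFGFR1+HG). The siFGFR1+HG libraries were the lowest. It fell by 18.1% against HG (log2 -0.29 ± 0.026 (SE), edgeR adjusted p = 0.000808) and fell by 14.1% against Ctrl (log2 -0.22 ± 0.026 (SE), edgeR adjusted p = 0.00244). Eno3, the muscle form (chromosome 10, 57278307 to 57283653, plus strand), had 39.7 and 41.9 FPKM (Ctrl), 32.5 and 30.97 FPKM (HG) and 22.98 and 22.5 FPKM (siFGFR1+HG). The 3 groups followed each other without overlap, Ctrl highest and siFGFR1+HG lowest. It fell by 23.2% in HG (log2 -0.38 ± 0.053 (SE), edgeR adjusted p = 0.00854), fell by 27.7% from HG to siFGFR1+HG (log2 -0.47 ± 0.053 (SE), edgeR adjusted p = 0.00161) and fell by 44.4% from Ctrl (log2 -0.85 ± 0.053 (SE), edgeR adjusted p = 0.000283). The first call was lost without Ctrl 2 (0.0530). The muscle marker sum given above was also highest in Ctrl and lowest in siFGFR1+HG, but not all its members followed that order. Des followed it, at 7.80 and 7.40 FPKM (Ctrl), 5.29 and 5.54 FPKM (HG) and 4.25 and 4.67 FPKM (siFGFR1+HG). So did Myog, at 25.3 and 27.4 FPKM (Ctrl), 21.9 and 23.4 FPKM (HG) and 16.1 and 16.9 FPKM (siFGFR1+HG). Chrna1 did too, below 1 FPKM in every library. Others departed from it. Tnnt2 had 129 and 123 FPKM (Ctrl), 125 and 127 FPKM (HG) and 75.7 and 75.7 FPKM (siFGFR1+HG). Cdh15 had 138 and 139 FPKM (Ctrl), 116 and 118 FPKM (HG) and 129 and 126 FPKM (siFGFR1+HG), so its HG libraries were the lowest. Myod1 lay between 62.9 and 67.4 FPKM in all 6 libraries.

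Eno2, the neuronal form, had 15.8 and 17.4 FPKM (Ctrl), 20.5 and 18.5 FPKM (HG) and 22.1 and 24.6 FPKM (siFGFR1+HG). Both siFGFR1+HG libraries were the highest. It rose by 39.8% against Ctrl (log2 0.48 ± 0.084 (SE), edgeR adjusted p = 0.00977). That call was lost without Ctrl 1 (0.0555) or siFGFR1+HG 2 (0.0524). Counts of LOC100911625, described as a copy of Eno2, made up 49.7 to 51.7% of the pair in 5 libraries and were 0 in HG 1. With the rows summed the difference against Ctrl was log2 0.46, edgeR adjusted p = 0.227. The sums were 76.2 and 80.5 CPM (Ctrl), 47.5 and 85.6 CPM (HG) and 102 and 114 CPM (siFGFR1+HG). Ctrl and siFGFR1+HG thus did not overlap, and the fit takes its spread from all 3 groups, HG 1 included. Of the enolase FPKM, Eno3 held 4.71% and 4.92% (Ctrl), 3.58% and 3.55% (HG) and 3.14% and 3.12% (siFGFR1+HG), and Eno2 1.88% and 2.05% (Ctrl), 2.25% and 2.13% (HG) and 3.01% and 3.41% (siFGFR1+HG).

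Pkm, pyruvate kinase, which makes pyruvate and ATP, measured 612 and 654 FPKM (Ctrl), 626 and 644 FPKM (HG) and 607 and 602 FPKM (siFGFR1+HG) and was not called (log2 -0.057 ± 0.034 (SE), edgeR adjusted p = 0.262 against HG). Rows described as copies, LOC100364062 and AABR07044711, carry further counts of it. Summed with them, Pkm was lower in siFGFR1+HG against HG (log2 -0.17, edgeR adjusted p = 0.00162) and against Ctrl (log2 -0.18, edgeR adjusted p = 0.00163). That setting was chosen after the values were seen. Of the copy rows, AABR07044711 was itself lower against HG (log2 -0.69 ± 0.19 (SE), edgeR adjusted p = 0.0367). LOC100364062 was not called there (log2 -0.59 ± 0.46 (SE), edgeR adjusted p = 0.384). No row of the table is named Gapdh. The row LOC108351137 on chromosome 4, described as glyceraldehyde phosphate dehydrogenase, was looked up after the values were seen, as was a second row of that name on chromosome 5. The first had 1791 and 1750.0 FPKM (Ctrl), 1840.2 and 1714 FPKM (HG) and 1594 and 1507 FPKM (siFGFR1+HG). Against HG this first row was lower in siFGFR1+HG (log2 -0.18 ± 0.041 (SE), edgeR adjusted p = 0.0180), a call lost without HG 1 or siFGFR1+HG 2. It was also lower against Ctrl (log2 -0.20 ± 0.041 (SE), edgeR adjusted p = 0.0181), a call lost without Ctrl 1, Ctrl 2 or siFGFR1+HG 2. The second had 345 and 736 FPKM (Ctrl), 868 and 539 FPKM (HG) and 786 and 768 FPKM (siFGFR1+HG), with Ctrl 1 the lowest. It was not called, at log2 0.16 ± 0.36 (SE), edgeR adjusted p = 0.783 against HG and log2 0.52 ± 0.36 (SE), edgeR adjusted p = 0.355 against Ctrl.

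Lactate dehydrogenase is built from the Ldha subunit, which favours lactate, and the Ldhb subunit of heart. Ldha (chromosome 1, 102900286 to 102909707, plus strand) had 642 and 642 FPKM (Ctrl), 724 and 713 FPKM (HG) and 566 and 573 FPKM (siFGFR1+HG). The HG libraries were highest, Ctrl lay between and siFGFR1+HG was lowest, with no overlap. Ldha rose by 10.5% in HG (log2 0.14 ± 0.024 (SE), edgeR adjusted p = 0.0137). From HG to siFGFR1+HG it fell by 20.04% (log2 -0.32 ± 0.024 (SE), edgeR adjusted p = 0.000435), and against Ctrl it fell by 11.6% (log2 -0.18 ± 0.024 (SE), edgeR adjusted p = 0.00365). The rise was lost without Ctrl 1 (0.0748), Ctrl 2 (0.0725), HG 1 (0.0670) or HG 2 (0.0502); both falls held in all 17 alternatives. Ldhb had 173 and 169 FPKM (Ctrl), 181 and 178 FPKM (HG) and 178 and 181 FPKM (siFGFR1+HG), with siFGFR1+HG overlapping HG, and passed nowhere (log2 0.014 ± 0.034 (SE), edgeR adjusted p = 0.797 against HG). Ldha accordingly made up 78.7% and 79.1% (Ctrl), 80.02% and 79.99% (HG) and 76.1% and 75.9% (siFGFR1+HG) of lactate dehydrogenase FPKM.

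**Figure D5:**
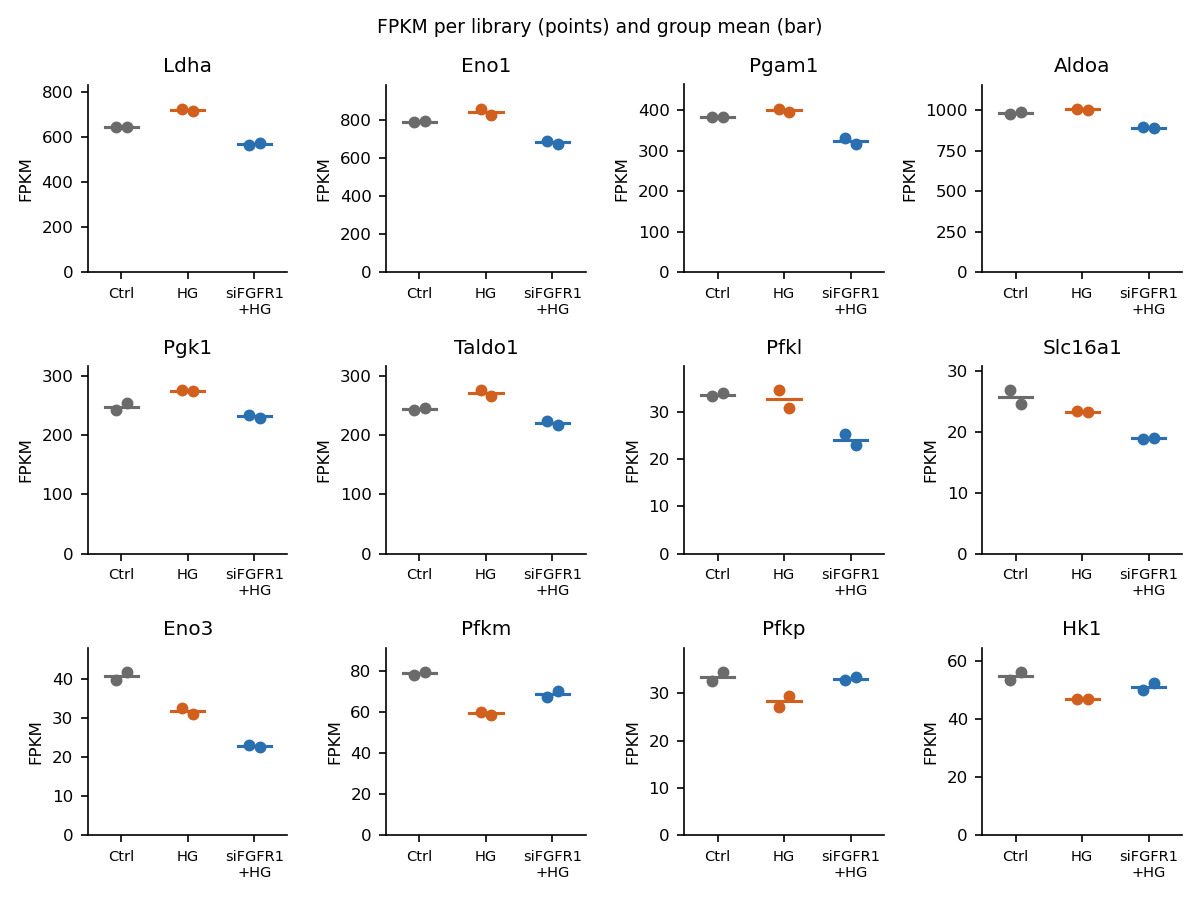
FPKM of 12 genes in each library, as points, with 1 panel per gene and the group mean of 2 libraries as a short line. Ldha rises in HG and is lowest in siFGFR1+HG, Pfkm is lowest in HG, and Eno3 is lower in HG than in Ctrl and lowest in siFGFR1+HG.

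Promoters of these lactate dehydrogenase and phosphofructokinase subunits are shown because the calls differed between subunits of 1 enzyme; they were picked after the values were seen. They come from RefSeq (build GRCr8) and cover 250 bases before to 50 after the annotated start, and 32 of the 36 genes matched a promoter. Capitals mark ACGTG or GCGTG on either strand, the core of the hypoxia response element that HIF binds. CACGTG, an E-box, contains ACGTG and counts for both strands of it. Their places are Ldha, chr1:106507842-106508141, plus strand; Ldhb, chr4:177177359-177177658, minus strand; Pfkl, chr20:10663715-10664014, plus strand; Pfkm, chr7:131113849-131114148, plus strand; and Pfkp, chr17:68639563-68639862, plus strand.
Ldha: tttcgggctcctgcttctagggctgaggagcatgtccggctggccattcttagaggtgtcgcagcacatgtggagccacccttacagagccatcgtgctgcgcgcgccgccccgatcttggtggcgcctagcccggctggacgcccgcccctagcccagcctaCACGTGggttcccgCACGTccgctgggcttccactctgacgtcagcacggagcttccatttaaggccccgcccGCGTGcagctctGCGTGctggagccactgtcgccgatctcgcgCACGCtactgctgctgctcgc
Ldhb: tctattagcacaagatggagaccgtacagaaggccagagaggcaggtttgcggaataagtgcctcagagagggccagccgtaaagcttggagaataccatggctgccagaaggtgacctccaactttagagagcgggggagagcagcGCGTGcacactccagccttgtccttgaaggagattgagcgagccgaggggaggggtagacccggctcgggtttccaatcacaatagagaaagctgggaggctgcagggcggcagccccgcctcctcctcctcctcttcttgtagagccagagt
Pfkl: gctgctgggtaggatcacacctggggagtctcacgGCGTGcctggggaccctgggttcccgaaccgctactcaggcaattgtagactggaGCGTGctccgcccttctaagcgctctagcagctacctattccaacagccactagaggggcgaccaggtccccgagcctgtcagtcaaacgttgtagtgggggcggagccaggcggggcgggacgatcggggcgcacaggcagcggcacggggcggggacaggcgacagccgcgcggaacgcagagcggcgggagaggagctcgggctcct
Pfkm: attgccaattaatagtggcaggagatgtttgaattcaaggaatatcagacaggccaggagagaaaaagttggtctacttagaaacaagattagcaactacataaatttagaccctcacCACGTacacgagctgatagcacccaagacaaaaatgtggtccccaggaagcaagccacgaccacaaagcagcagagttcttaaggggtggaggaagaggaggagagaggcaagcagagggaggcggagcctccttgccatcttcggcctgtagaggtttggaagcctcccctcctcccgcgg
Pfkp: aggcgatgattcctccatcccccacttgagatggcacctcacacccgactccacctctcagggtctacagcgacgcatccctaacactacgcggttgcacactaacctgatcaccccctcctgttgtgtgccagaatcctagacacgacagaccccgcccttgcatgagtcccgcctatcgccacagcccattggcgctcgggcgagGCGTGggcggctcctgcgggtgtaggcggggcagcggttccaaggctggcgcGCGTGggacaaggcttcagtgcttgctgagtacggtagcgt

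The Ldha window holds 6 matches to ACGTG or GCGTG and Ldhb 1. Pfkl and Pfkp hold 2 each and Pfkm 1. Among the other windows, Pdhb and Pdk3 hold 5 each and were called in no comparison, while Slc16a1 holds 4 and was called. Aldoa and Eno3 hold 0 and were called, and Pkm holds 0 and was not. Either motif occurs in 42.9% of the 27457 promoters searched, and in 19 of the 32 matched here. ACGTG alone was in 19.7% of all promoters and 13 of the 32, GCGTG in 31.1% and 14, and CACGTG in 6.65% and 5. The GC box GGGCGG was in 34.9% of all and 20 of the 32, and TATAAA in 14.3% and 3. A match is a run of letters, not a bound site, and no test was made of it.

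Pyruvate dehydrogenase links glycolysis to the mitochondria, and Pdk1, Pdk2 and Pdk3 are kinases that inactivate it. Pdk2 had 10.9 and 9.10 FPKM (Ctrl), 9.38 and 10.1 FPKM (HG) and 13.9 and 13.7 FPKM (siFGFR1+HG). Both siFGFR1+HG libraries were the highest. It rose by 42.7% against HG (log2 0.51 ± 0.12 (SE), edgeR adjusted p = 0.0244) and by 37.4% against Ctrl (log2 0.46 ± 0.12 (SE), edgeR adjusted p = 0.0438). The first call was lost without HG 1, HG 2, siFGFR1+HG 1 or siFGFR1+HG 2, with log2 at 0.46 to 0.57 over 17 alternatives. The second was lost in 9 of 17, with log2 at 0.33 to 0.59. Those 9 were the 6 fits that left a library out, no filter, only the 2 groups compared and the replicate block. Pdk1, a hypoxia-responsive form, had 10.6 and 10.7 FPKM (Ctrl), 9.25 and 7.14 FPKM (HG) and 10.6 and 10.04 FPKM (siFGFR1+HG) and was not called (log2 -0.40 ± 0.14 (SE), edgeR adjusted p = 0.111 in HG against Ctrl). Pdk3 had 10.5 and 11.7 FPKM (Ctrl), 12.2 and 12.8 FPKM (HG) and 13.7 and 12.3 FPKM (siFGFR1+HG) and was not called. Pdha1 and Pdhb, subunits of the enzyme itself, ranged from 58.9 to 71.9 and from 24.7 to 28.3 FPKM, with no call.

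Of the pentose phosphate genes, Taldo1, transaldolase, which rearranges sugars back towards glycolysis, had 241 and 245 FPKM (Ctrl), 275 and 265 FPKM (HG) and 223 and 216 FPKM (siFGFR1+HG). It was highest in HG and lowest in siFGFR1+HG, without overlap between groups. It rose by 9.68% in HG (log2 0.13 ± 0.034 (SE), edgeR adjusted p = 0.0483), a call lost in 10 of 17 alternatives, among them the fits without Ctrl 1 (0.204), Ctrl 2 (0.145), HG 1 (0.158), HG 2 (0.0715), siFGFR1+HG 1 (0.0742) or siFGFR1+HG 2 (0.0703). It fell by 18.00% from HG to siFGFR1+HG (log2 -0.29 ± 0.034 (SE), edgeR adjusted p = 0.00184), which held in all 17. Against Ctrl it fell by 10.1% (log2 -0.15 ± 0.034 (SE), edgeR adjusted p = 0.0221), lost without Ctrl 1 (0.0801), Ctrl 2 (0.109), siFGFR1+HG 1 (0.0667) or siFGFR1+HG 2 (0.0972). Rpe, the ribulose phosphate epimerase, had 16.9 and 18.4 FPKM (Ctrl), 16.7 and 18.2 FPKM (HG) and 14.5 and 15.3 FPKM (siFGFR1+HG). It fell by 15.9% against Ctrl (log2 -0.25 ± 0.069 (SE), edgeR adjusted p = 0.0452). That call was lost in 8 of 17 alternatives, with log2 at -0.31 to -0.19. They were upper quartile scaling, both limma fits and the fits without Ctrl 1, Ctrl 2, HG 2, siFGFR1+HG 1 or siFGFR1+HG 2. Tkt (transketolase), Pgls and Rpia were not called in any comparison, at 114 to 125, 15.5 to 21.00 and 9.62 to 11.01 FPKM.

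A further 45 genes of glucose metabolism were listed, of which 41 are in the table and 29 were tested. In HG against Ctrl 1 rose and 1 fell, 6.90% of the 29 beside 13.7% of all genes. Bsg, the chaperone of monocarboxylate transporters, rose (log2 0.19 ± 0.026, edgeR adjusted p = 0.00845), a call lost without Ctrl 1 (0.0554). Pdp2, a phosphatase that reactivates pyruvate dehydrogenase, fell (log2 -0.34 ± 0.052, edgeR adjusted p = 0.0117), lost without Ctrl 1, Ctrl 2 or HG 2 (up to 0.0668). In siFGFR1+HG against HG 2 rose and 3 fell, 17.2% beside 29.9%. The ribose phosphate pyrophosphate synthetases Prps2 (log2 -0.52 ± 0.062, edgeR adjusted p = 0.00185) and Prps1 (log2 -0.39 ± 0.050, edgeR adjusted p = 0.00249) fell, and Pdp2 rose (log2 0.32 ± 0.053, edgeR adjusted p = 0.00581). Pfkfb1, the liver Pfkfb enzyme, fell (log2 -0.61 ± 0.16, edgeR adjusted p = 0.0315), lost without Ctrl 2, HG 1 or either siFGFR1+HG library (up to 0.116) and in 2 other fits. Pck2, the mitochondrial enzyme that makes phosphoenolpyruvate, rose (log2 0.23 ± 0.064, edgeR adjusted p = 0.0374), a call lost in 7 of 17 alternatives, among them the fits without either Ctrl library, either HG library or siFGFR1+HG 2 (up to 0.159). Against Ctrl 2 rose and 2 fell, 13.8% beside 22.3%. Bsg (log2 0.19 ± 0.026, edgeR adjusted p = 0.00419) and Pck2 (log2 0.36 ± 0.064, edgeR adjusted p = 0.0106) rose. Prps2 (log2 -0.50 ± 0.061, edgeR adjusted p = 0.00276) and Prps1 (log2 -0.25 ± 0.050, edgeR adjusted p = 0.0155) fell. The Pck2 call was lost without Ctrl 2 or siFGFR1+HG 2 (up to 0.0636), and that of Prps1 without any 1 of the 4 Ctrl and siFGFR1+HG libraries (up to 0.0762).

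Of 16 listed regulators of these genes, 12 were tested. In HG against Ctrl Mlx rose, and Sp1, Mlxip, Hif1a and Mycn fell, all named after their values were seen. Over all genes tested, 13.7% were called. The fall of Sp1 (log2 -0.32 ± 0.038) held in all 17 alternatives. Mlx (log2 0.26 ± 0.063) and Mycn (log2 -0.26 ± 0.052) lost their calls in 7 and 6 of 17. Foxk2 and Sp1 rose in siFGFR1+HG against HG (29.9% of all genes called), the Sp1 call lost in 10 of 17. Against Ctrl Foxk2 rose and Sp1 fell (22.3% of all), calls lost in 3 and 6 of 17. Hif1a, the hypoxia factor that drives many glycolytic genes, fell in HG (log2 -0.24 ± 0.048, edgeR adjusted p = 0.0247), a call lost in 7 of 17 alternatives. They were both limma fits, only the 2 groups compared, and the fits without Ctrl 1, HG 1, HG 2 or siFGFR1+HG 2. Mlxip, a glucose-sensing partner of Mlx, fell in HG (log2 -0.29 ± 0.057, edgeR adjusted p = 0.0230). That call was lost in 6 of 17 alternatives, both limma fits and those without any 1 of the 4 Ctrl and HG libraries. Mlxip rose in siFGFR1+HG against HG (log2 0.34 ± 0.057, edgeR adjusted p = 0.00662). These values stand beside those of the enzymes, and whether they are linked was not tested.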

How the data were processed

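RNA was sequenced from 6 H9C2 libraries, 2 in each of 3 groups. Fastp, HISAT2 and StringTie and the build GRCh38 are named, per the submitters' processing notes, with no version or role; the rat gene IDs do not match a human build. The authors deposited whole-number counts per gene and FPKM values (0.0001 standing for a count of 0), per the file headers; other steps are not given in the sources used here.

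The 12229 genes that reached 1 FPKM in 2 or more libraries were tested with edgeR 4.0.16 in R 4.3.3: TMM scaling, 1 mean per group over all 6 libraries (3 residual degrees of freedom), the quasi-likelihood test, and Benjamini-Hochberg adjustment over all genes tested, called at an adjusted p under 0.05. Standard errors are the log2 fold change divided by the square root of F. Alternatives used DESeq2 1.42.0, limma 3.58.1 on log2(FPKM + 1) and log2(FPKM + 0.1), other scalings and filters, a replicate block, each library left out, and a gene's described copies summed (11 rows of 9 genes).

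The 36 genes and the other lists were chosen with earlier results of these data known. Values in every library are given for the genes with the 8 smallest p in a comparison and for the isozyme groups; other genes are given by range. Of the listed regulators, 1 is not reported here. The copies, the genes plotted by library, the promoters and the shares examined across settings were chosen after the values were seen.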

Additional observations from a re-analysis of the deposited data

How the results depend on the processing

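Of the calls among the 34 genes, 1 of 7 in HG against Ctrl, 9 of 14 in siFGFR1+HG against HG and 7 of 13 in siFGFR1+HG against Ctrl held in all alternative fits, 17 a gene but 16 for Slc2a1, Pfkfb2, Pfkfb3 and Pfkfb4, which the filter at 5 FPKM removed. No called gene changed sign in any of them. Same-numbered libraries showed little shared deviation between groups. The correlation of same-numbered deviations was 0.059 between Ctrl and HG, 0.051 between Ctrl and siFGFR1+HG, and -0.090 between HG and siFGFR1+HG. The labels do not say whether replicate numbers pair the libraries, and these values cannot settle it. With the replicate number as a block, 470 genes were higher and 683 lower in HG against Ctrl, the 34 genes held 5 calls, and 1 gene of the 34 was called higher in HG and 1 in siFGFR1+HG against Ctrl.

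The genes called in HG against Ctrl numbered 2628 with DESeq2's Wald test, and 456 to 1302 when 1 library was left out. In siFGFR1+HG against HG they were 2293 to 3247 when 1 library was left out, and against Ctrl 1379 to 2586. Among the 34 genes, those higher in HG were 1 with DESeq2 size factors, without a filter or with only the 2 groups compared, and 0 to 1 with a library left out. Those lower were 8 with DESeq2, 3 with limma at either pseudocount, and 1 to 4 with a library left out. In siFGFR1+HG against HG, 9 were higher with DESeq2 and 1 to 4 with a library left out, and 8 to 10 were lower. Against Ctrl, 1 was higher without a filter, with only the 2 groups or with described copies summed, and 0 to 1 with a library left out, and 7 to 11 were lower. At an adjusted p under 0.01, a threshold added after seeing the data, 432 genes were called in HG against Ctrl, 1773 in siFGFR1+HG against HG and 1211 against Ctrl. Of the 34 genes, 0 were then higher and 2 lower in HG against Ctrl, 1 higher and 8 lower in siFGFR1+HG against HG, and 1 higher and 7 lower against Ctrl. Summing copies was also added after seeing the data.

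A sign changed in 51 values of 25 of the 102 gene and comparison pairs, none of them called. In HG against Ctrl the log2 ranges over the fits without 1 library were Pfkl (-0.15 to 0.019), Tpi1 (-0.63 to 0.29), Pfkfb3 (-1.50 to 0.0017), Pfkfb4 (-0.025 to 0.25), Pkm (-0.059 to 0.033), Pdk2 (-0.18 to 0.085), Pdha1 (-0.13 to 0.080), Rpia (-0.13 to 0.027) and Rpe (-0.10 to 0.024). In siFGFR1+HG against HG the log2 ranges over the fits without 1 library were Hk2 (-0.10 to 0.012), Tpi1 (-0.39 to 0.53), Pgam2 (-0.26 to 0.023), Ldhb (-0.011 to 0.027), Pdk3 (-0.019 to 0.13), Pdhb (-0.17 to 0.00072), Pgls (-0.18 to 0.13) and Tkt (-0.034 to 0.048). In siFGFR1+HG against Ctrl the log2 ranges over the fits without 1 library were Slc2a1 (-0.031 to 0.15), Slc2a3 (-0.41 to 0.055), Pfkp (-0.068 to 0.015), Tpi1 (-0.37 to 0.22), Pfkfb2 (-0.017 to 0.078), Pfkfb3 (-1.34 to 0.16) and Pdhb (-0.10 to 0.068). Pfkfb4 in HG against Ctrl became -0.0025 with near-identical rows summed. Eno2 in HG against Ctrl became -0.25 with near-identical rows summed. Pkm in HG against Ctrl became 0.0029 with library size alone, 0.0046 with limma on log2(FPKM + 1) and 0.0046 with limma on log2(FPKM + 0.1). Tpi1 in siFGFR1+HG against HG became 0.0021 with DESeq2 size factors in edgeR, 0.021 with upper quartile scaling, 0.0028 with DESeq2 Wald test, 0.038 with limma on log2(FPKM + 1), 0.039 with limma on log2(FPKM + 0.1), 0.0085 with at least 5 FPKM in 2 libraries, 0.0080 with only the 2 groups compared and 0.077 with replicate block. Ldhb in siFGFR1+HG against HG became -0.0015 with library size alone. Tkt in siFGFR1+HG against HG became -0.0020 with library size alone, -0.00059 with limma on log2(FPKM + 1) and -0.00060 with limma on log2(FPKM + 0.1). Pdhb in siFGFR1+HG against Ctrl became 0.013 with upper quartile scaling. The causes were not tested.

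Depth limited Pfkfb4, Aldoc and Slc16a3, whose counts were low, and the authors' counts per fragment are not known. Reads shared between a gene and its described copies can be split by the counting, so the Tpi1, Eno2, Pfkfb4 and Pkm rows are uncertain. With 2 libraries a group, no single library can be judged an outlier by rule, and a fit without a library assumes that the lone library left varies like those of the other groups.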
